A study of Mus musculus with 6 samples.

Results

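The genes described here are the 91 that stood at least 16 times higher in dexamethasone-treated than in control bone cells of the mouse and reached a mean of at least 100 normalized counts with dexamethasone. They were chosen by these measured values, from the mean of 3 libraries per group and with 1 added to each mean before the ratio was taken. Of 29616 genes in the table, 28087 had a symbol and 98 of those (0.349%) met both limits. Spp1, Dmp1, Fabp4, Serpina3m, Dusp2, Hif3a and Sgk1 were then left out by the choice of genes, which left 91. Since the control and dexamethasone values chose these genes, their differences are given as a description and with no test.

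RNA was sequenced from 3 control and 3 dexamethasone libraries of C57BL/6 mice. Dexamethasone, a synthetic glucocorticoid, was given every day (0.08 µg per g) over 4 weeks from 8 weeks of age, and the labels name the other libraries only as control. The study describes saline as the control treatment of its dexamethasone mice. The labels name the material as bone cells, and the study reports isolating Osteocalcin-positive cells from bones without marrow for its RNA sequencing. Neither source says whether a library came from 1 mouse or from pooled mice, so p-values measure the spread between libraries, which may be technical. The libraries held between 72596611 and 89910728 recovered reads. A normalized count is a gene's reads divided by the size factor of the library, and 1 read was worth between 0.879 and 1.16 normalized counts. The osteoblast markers Col1a1, Col1a2 and Sparc were at 107381 normalized counts or above in every library, and 10 of 11 osteoblast markers were called lower with dexamethasone. Osteocalcin itself (Bglap) was at 98.2, 102 and 122 normalized counts in the control libraries and between 9.54 and 15.1 in the dexamethasone libraries. In bulk libraries, fewer cells of a type and less RNA per cell cannot be told apart.

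Glucocorticoids bind the glucocorticoid receptor, a nuclear receptor that moves to the nucleus and binds DNA at response elements, where it raises some genes and lowers others. Fkbp5 and Sgk1 are among its best known targets in many tissues. In bone, long exposure to glucocorticoids is known for reduced bone formation and bone loss.

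The 91 genes spanned a wide range of levels and ratios. Their dexamethasone means ran from 103 to 147960.4 normalized counts with a median of 589, and their control means ran from 0 to 7585 with a median of 12.9. The ratio ran from 16.1 to 321 with a median of 27.9. It was at least 32 in 39 genes and at least 64 in 19. A dexamethasone mean of at least 1000 was reached by 35 genes and of at least 10000 by 7. Together the genes took 0.0294% to 0.0299% of all normalized counts in the control libraries and 0.656% to 0.671% in the dexamethasone libraries. The 3 highest, Timp1, Hmga2 and Hmga1, made up 58.1% of their sum with dexamethasone. In all 91 genes the lowest dexamethasone library lay above the highest control library, which held upward for 38.4% of the 17442 genes tested. All 91 also passed the limma cut-offs (adjusted p under 0.05 and at least 1 in size on the log2 scale) in the upward direction, as 11.7% of all tested genes did. Both counts follow from the choice of genes and nothing is read from them.

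**Figure D1:**
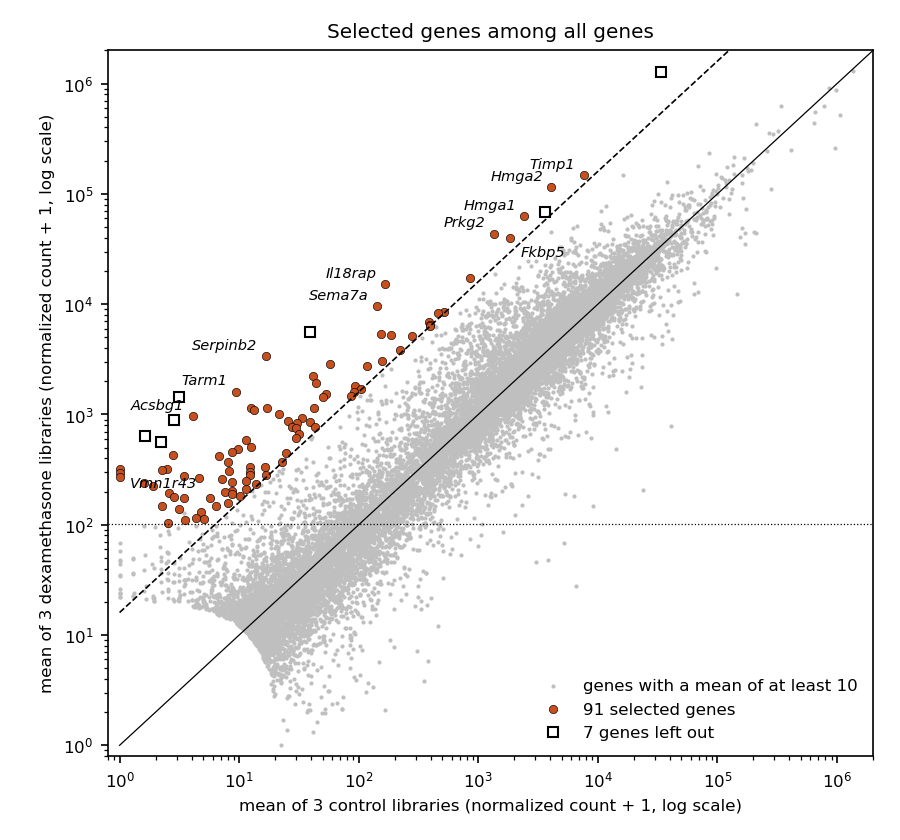
Each point is a gene, with the mean of 3 control libraries on the x axis and of 3 dexamethasone libraries on the y axis (normalized count + 1, both axes logarithmic). The dashed line marks a ratio of 16, the dotted line a dexamethasone mean of 100 and the solid line equal means, and the 91 selected genes (orange) run from Vmn1r43 at a control mean of 0 to Timp1 at 7585.

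The limits cut through a continuous range. Just inside the ratio lay E2f8 (16.11), Adam12 (16.14) and 9330154J02Rik and Tes (both 16.25), and just outside it lay Gfra1 (15.93), Ltbp2 (15.31), Gm14002 (15.14) and Gm47815 (15.04). Just inside the level lay 5430425K12Rik (103 normalized counts), Tnni3k (110.3), AC154912.5 (111) and Cacng8 (115), and just outside it lay Gm5122 (99.0), Ccr1 (96.2), Fcgr2b (96.02) and Spint1 (95.8). The genes left out had dexamethasone means of 1279674 normalized counts for Spp1, 68542 for Sgk1, 5639 for Dmp1, 1448 for Fabp4, 881 for Dusp2, 640.2 for Serpina3m and 566 for Hif3a.

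Counted per kilobase of exon, the selected genes were mostly low in the control libraries and spread over the whole range with dexamethasone. Timp1 had a level of 8541 normalized counts per kb with control and 166622 with dexamethasone, and its rank among the tested genes was 291 and 9. Hmga1 had rank 3186 with control and 57 with dexamethasone, and Hmga2 had ranks 5543 and 134. Prkg2, Dusp6 and Fkbp5 stood at ranks 329, 518 and 753 with dexamethasone, where their control ranks were 8600.0, 8346 and 9252. These 6 were the selected genes within the 1000 highest tested genes with dexamethasone, and Timp1 was the only such gene with control. Of the 91, 38 lay above the middle of the ranking per kb with dexamethasone and 5 with control. The median level was 195 normalized counts per kb with dexamethasone, beside 280 for all tested genes, so most of these genes remained below the middle of the table.

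**Figure D2:**
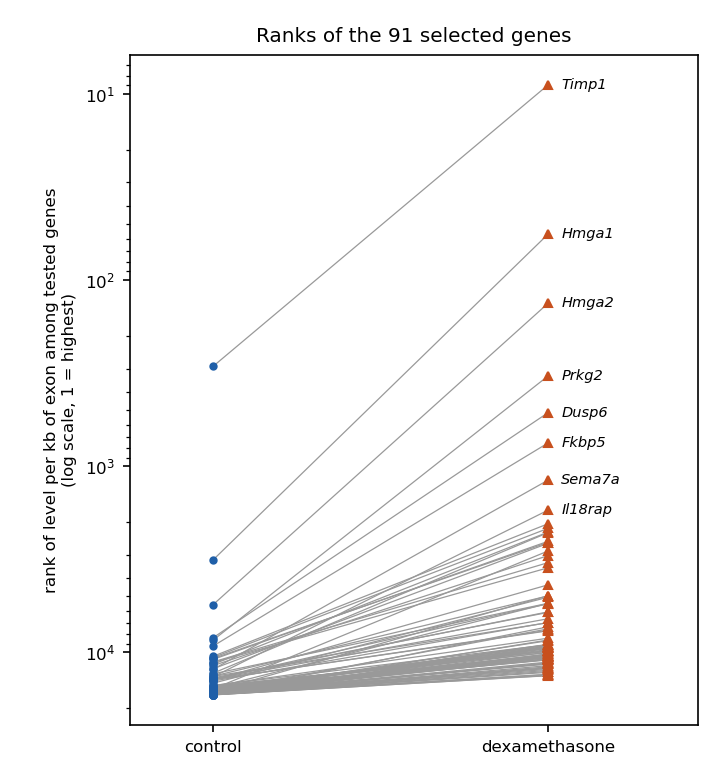
Lines join the rank of each of the 91 selected genes by level per kb of exon in the control mean (left, blue) and in the dexamethasone mean (right, orange), on a logarithmic axis where rank 1 is the highest tested gene. Timp1 moves from rank 291 to rank 9, and most genes start and end below rank 1000.

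Replicates were close. The coefficient of variation over the 3 dexamethasone libraries had a median of 4.999% in the selected genes, beside 3.96% in the 11904 tested genes with a dexamethasone mean of at least 100. The highest library was dexamethasone replicate 1 for 33 genes, replicate 2 for 30 and replicate 3 for 28. The largest spread was in 9230105E05Rik, with 119, 275 and 213 normalized counts in the dexamethasone libraries, a coefficient of variation of 38.7%.

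Nuclear proteins made up 9 genes, and Hmga1 and Hmga2 stood below only Timp1 in level per kb among the 91. Hmga2, an architectural chromatin protein of embryonic and dividing cells, had 4093, 4129 and 4027 normalized counts in the control libraries and 118795, 111974 and 114792 in the dexamethasone libraries, a ratio of 28.2. Its relative Hmga1 had 2302, 2491 and 2472 normalized counts in the control libraries and 64988, 59263 and 63140.2 in the dexamethasone libraries, a ratio of 25.8. For both genes the libraries within a group differed far less than the groups, by whose difference the genes were chosen. Hmga1 and Hmga1b are near copies, and 53.1% of the 75-base windows of Hmga1 and 16.04% of those of Hmga1b occurred in no other gene, so the split of reads between them is uncertain. Hmga1b had means of 11.3 and 335 normalized counts. E2f8, an atypical E2F factor that represses cell cycle genes, had 370.0, 394 and 412 normalized counts with control and 6545, 6336 and 6120 with dexamethasone.

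The PEA3 group of ETS factors, which follow signalling from growth factor receptors through the kinase ERK, was present with Etv5 and Etv4. Etv5 had 373, 385 and 427 normalized counts with control and 6875, 6499 and 6207 with dexamethasone, a ratio of 16.5. Etv4 had 67.9, 55.8 and 45.7 normalized counts with control and 2983, 2807 and 2794 with dexamethasone, a ratio of 49.8. Fosl1, the AP-1 subunit Fra-1, had 109, 118 and 120.4 normalized counts with control and 2908, 2676 and 2709 with dexamethasone. No library of a group came near those of the other in these 3 genes, which follows from the choice of genes. In the GENCODE M21 annotation Ccdc85b lies over 57.2% of the exon bases of Fosl1 on the opposite strand, and the strand setting of the count is not given in the sources used here. Greb1, an estrogen-induced growth gene, had means of 20.7 and 1002 normalized counts and Scml4, a Polycomb-related protein, of 32.4 and 924.

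Among 10 intracellular signalling proteins, 3 exceeded 10000 normalized counts with dexamethasone. Prkg2, the cGMP-dependent protein kinase II that takes part in cartilage and bone growth, had 1333, 1388 and 1326 normalized counts in the control libraries and 43036, 44207 and 43547 in the dexamethasone libraries, a ratio of 32.3. Fkbp5, the co-chaperone that restrains the glucocorticoid receptor, had 1829, 1897 and 1838 normalized counts with control and 42453, 37715 and 38298 with dexamethasone, a ratio of 21.3. Dusp6, the phosphatase that inactivates ERK, had 872, 849 and 848 normalized counts with control and 17730.1, 17042 and 17542 with dexamethasone, a ratio of 20.3. The libraries of a group were close to each other in these 3 genes. Dock10 and Dock8, guanine nucleotide exchange factors, had dexamethasone means of 8340 and 1457 normalized counts. Shc4, an adaptor of receptor tyrosine kinases, had means of 156 and 3048, a ratio of 19.5. Sgsm1 (1453 normalized counts with dexamethasone), Pbp2 (871), Ngef (507) and Tnni3k (110.3) were the others of this class.

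**Figure D3:**
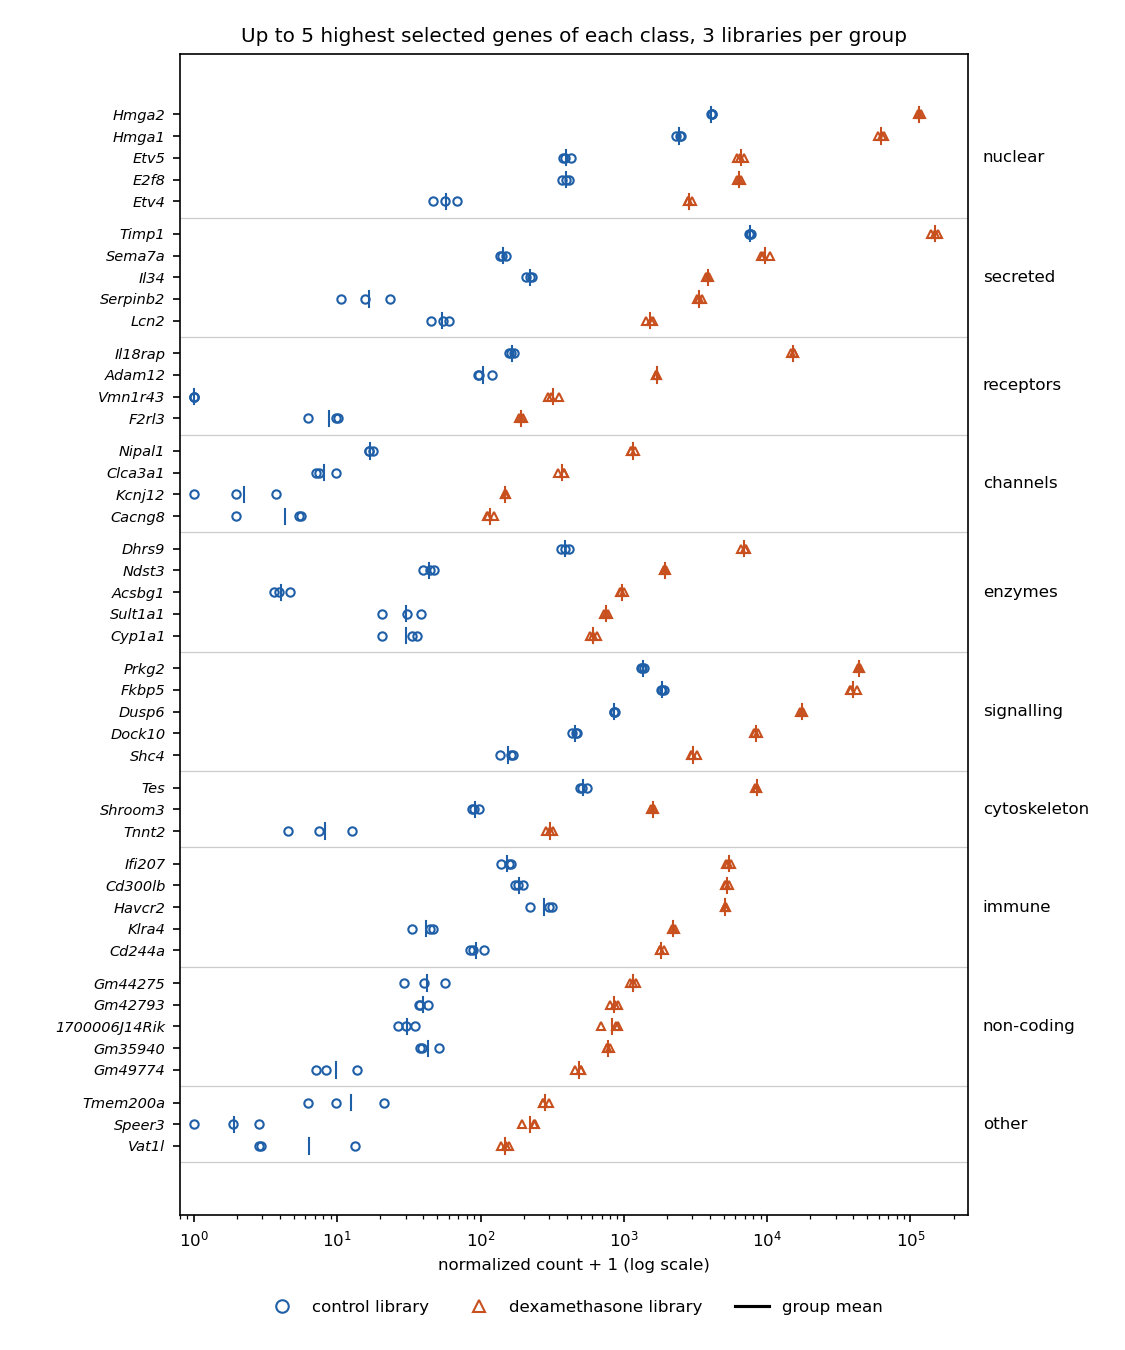
Each row is a selected gene, up to 5 per class by dexamethasone mean, with circles for the 3 control libraries, triangles for the 3 dexamethasone libraries and ticks for the group means (normalized count + 1, logarithmic axis). Within a row the 2 groups do not overlap, which follows from the choice of genes. Control values that rest on few reads are often the more scattered, but not in every row. The control coefficient of variation was 3.85% in Nipal1 and 18.2% in Havcr2, which had more control reads.

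Secreted proteins made up 15 genes. Timp1, an inhibitor of matrix metalloproteinases, had 7465, 7688 and 7601 normalized counts in the control libraries and 138710.1, 148898 and 156273 in the dexamethasone libraries, a ratio of 19.5. Of the other 3 members of its family, 2 were called lower and 1 was not called. Timp3 fell from 55677 ± 1538.7 to 21484 ± 1107.4 normalized counts (SD, n = 3 in each group), or -1.38 on the log2 scale (adjusted p = 4.91e-20 with limma). Timp4 fell by 1.51 on the log2 scale (limma adjusted p = 0.00236), and the log2 fold change of Timp2 was 0.17.

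Sema7a, a membrane-anchored semaphorin that signals through integrins and plexin C1, had 151, 135 and 141 normalized counts with control and 10401, 9118 and 9324 with dexamethasone, a ratio of 67.2. Il34, an alternative ligand of the CSF-1 receptor, had 220.3, 228 and 208 normalized counts with control and 3819, 3757 and 3949 with dexamethasone, a ratio of 17.5. Both ligands stood apart from the control libraries in every dexamethasone library, as the choice of genes favours. Of 5 tested receptors of these ligands, listed after the genes were known, 1 rose and 2 fell. Plxnc1 fell from 1693 ± 15.7 to 580.5 ± 40.2 normalized counts (SD, n = 3 in each group), or -1.54 on the log2 scale (adjusted p = 8.2e-18 with limma). The integrin subunit Itga1 fell by 1.91 on the log2 scale (limma adjusted p = 3.25e-22). Csf1r, the receptor of CSF-1 and Il34, was low in both groups, at 46.0 ± 7.48 (SD, n = 3) and 28.3 ± 0.358 (SD, n = 3) normalized counts. Sdc1, a heparan sulfate proteoglycan, rose from 10585 ± 426 to 22195 ± 853 normalized counts (SD, n = 3 in each group), or 1.07 on the log2 scale (adjusted p = 3.39e-18 with limma). It was 0.95 with all libraries scaled to the same total and 0.88 with quantile normalization, both under the limit of 1. The integrin subunit Itgb1 was abundant in both groups, at 97927 and 106037 normalized counts, and was not called (0.12 on the log2 scale).

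Acute-phase proteins, which the liver releases in inflammation and which glucocorticoids are known to raise there, gave 5 further secreted genes. Lcn2, an iron-siderophore binding lipocalin, had 59.7, 53.8 and 43.9 normalized counts with control and 1551, 1433 and 1598 with dexamethasone. Haptoglobin (Hp), which binds free hemoglobin, had 13.8, 10.8 and 12.3 normalized counts with control and 1160, 1042 and 1091 with dexamethasone, a ratio of 82.7. Serpina3n, a protease inhibitor, had means of 7.72 and 453 normalized counts. These gaps follow from the choice of genes and rest on few control reads. Hp and Serpina3n had at most 13.8 normalized counts in any control library. The orosomucoids Orm1 and Orm2, plasma carriers of drugs and lipids, lie on either side of Orm3 and have 86.16% and 86.02% of their 75-base windows in no other gene. Orm2 had means of 10.4 and 589 normalized counts. Orm1 had 2, 0 and 3 control reads and 341, 294 and 271 reads with dexamethasone, a ratio of 208 without the added 1 (95% exact binomial interval 89.0 to 643, counting error only). Of 6 other acute-phase genes tested, from a list made after the genes were known, Orm3, C3 and Cp rose and Hpx fell. The log2 fold changes of Orm3, C3 and Hpx were 3.15, 2.64 and -1.35. Ceruloplasmin (Cp), the copper carrier, rose from 5898 ± 86.5 to 19470.5 ± 379.6 normalized counts (SD, n = 3 in each group), or 1.72 on the log2 scale (adjusted p = 1.66e-23 with limma). The serum amyloid genes were too low to be tested. Saa1, Saa2 and Saa4 had means of at most 1.22 normalized counts in both groups, while Saa3 had 2.75, 2.94 and 0.879 with control and 12.4, 15.3 and 18.6 with dexamethasone.

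Serpinb2, plasminogen activator inhibitor type 2, had 14.7, 22.5 and 9.67 normalized counts with control and 3355, 3233 and 3498 with dexamethasone, a ratio of 202. The EGF receptor ligands Areg and Btc lie in the same region of chromosome 5. Areg had 7.34, 4.89 and 6.15 normalized counts with control and 259, 236 and 288 with dexamethasone. Btc had 22.0, 29.4 and 29.0 normalized counts with control and 773, 758 and 792 with dexamethasone. Areg, Btc and Serpinb2 were thus low in each control library. Among 6 other tested genes of the EGF family, chosen after the genes were known, Ereg and Hbegf rose and Egf and Nrg1 fell, the latter by 1.23 and 1.63 on the log2 scale. Ereg, beside Areg on the chromosome, rose from 334 ± 6.05 to 4982 ± 53.7 normalized counts (SD, n = 3 in each group), or 3.89 on the log2 scale (SE 0.0486, adjusted p = 3.38e-27 with limma). Hbegf rose by 2.36 on the log2 scale (adjusted p = 5.36e-23 with limma). The receptor Egfr had a log2 fold change of 0.30, below the cut-off of 1. The remaining secreted genes were Fam19a5 (1132 normalized counts with dexamethasone), Ccbe1 (265), Prl2c3 (250.5) and Nxph3 (183). Only 48.3% of the windows of Prl2c3, a proliferin, were unique to it.

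Promoters bear on whether the genes that moved together share letters near their starts. The 250 bases before the start were read from RefSeq (GRCm38.p6) for 84 promoters of 70 of the selected genes. The palindrome of the glucocorticoid response element, written as AGAACA, 3 bases and TGTTCT on either strand, occurred in 0 of 84 promoters and in 3 of 32851 promoters in the whole table. The letters AGAACA on either strand occurred in 10 of the 84 (11.9%) and in 16.1% of all promoters. The TATA box letters TATAAA on either strand occurred in 16.7% and 12.4%, and the CRE letters TGACGTCA in 1 promoter (1.19%), that of Areg, and in 1.55% of all. AP-1 letters (TGANTCA) and ETS letters (GGAAGT) on either strand were searched after the genes were known, and occurred in 19.0% and 26.2% of the 84 against 6.75% and 19.7% of all promoters. The CRE and AP-1 letters differ in length, and as searched their matches cannot share bases. Promoters of Orm2, Serpina3n and Cd53 are shown because they hold AGAACA or TGTTCT, set in capitals.
Orm2, chr4:63362199-63362448, plus strand: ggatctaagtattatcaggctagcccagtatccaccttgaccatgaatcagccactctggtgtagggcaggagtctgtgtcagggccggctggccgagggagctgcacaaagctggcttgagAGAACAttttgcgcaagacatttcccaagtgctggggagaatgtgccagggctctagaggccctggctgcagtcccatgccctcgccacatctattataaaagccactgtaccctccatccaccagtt
Serpina3n, chr12:104406458-104406707, plus strand: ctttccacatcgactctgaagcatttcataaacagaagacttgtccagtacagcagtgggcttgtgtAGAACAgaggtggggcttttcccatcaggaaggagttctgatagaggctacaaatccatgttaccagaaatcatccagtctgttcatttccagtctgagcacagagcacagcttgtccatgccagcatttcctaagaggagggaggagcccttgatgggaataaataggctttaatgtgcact
Cd53, chr3:106790150-106790399, minus strand: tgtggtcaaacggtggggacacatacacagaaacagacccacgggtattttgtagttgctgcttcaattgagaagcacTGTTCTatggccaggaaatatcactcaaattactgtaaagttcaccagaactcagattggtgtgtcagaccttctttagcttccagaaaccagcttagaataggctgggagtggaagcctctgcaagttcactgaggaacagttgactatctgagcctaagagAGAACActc
TATA box letters and AP-1 letters both occurred in promoters of Dhrs9, Ifi209, Orm2 and Serpinb2. Promoters of Areg and Serpinb2 are shown because they hold TATA box letters together with CRE letters (Areg) or AP-1 letters (Serpinb2), set in capitals.
Areg, chr5:91139349-91139598, plus strand: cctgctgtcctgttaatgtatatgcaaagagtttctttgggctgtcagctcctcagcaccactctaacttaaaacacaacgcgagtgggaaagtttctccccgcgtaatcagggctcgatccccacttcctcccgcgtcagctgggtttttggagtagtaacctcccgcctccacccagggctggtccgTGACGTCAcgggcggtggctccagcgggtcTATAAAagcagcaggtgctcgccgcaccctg
Serpinb2, chr1:107511173-107511422, plus strand: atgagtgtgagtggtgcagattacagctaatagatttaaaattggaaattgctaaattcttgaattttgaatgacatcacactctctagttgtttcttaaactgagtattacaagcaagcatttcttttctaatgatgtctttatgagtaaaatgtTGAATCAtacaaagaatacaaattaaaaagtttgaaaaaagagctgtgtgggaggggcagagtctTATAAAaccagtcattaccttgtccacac
A match describes the letters in this window only, and sites farther from the start were not searched. The median GC content was 51.6% in the promoters of the selected genes and 52.4% in all promoters.

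Surface receptors were 4 genes, of which Il18rap exceeded 10000 normalized counts with dexamethasone. Il18rap, the accessory chain of the interleukin-18 receptor, had 170, 162 and 158 normalized counts with control and 15326, 15424 and 14641 with dexamethasone, a ratio of 92.0. Its partner chain Il18r1, next to it on the chromosome, rose only from 4.55 ± 3.09 to 30.1 ± 5.65 normalized counts (SD, n = 3 in each group), or 2.62 on the log2 scale (adjusted p = 6.56e-06 with limma). Adam12, a membrane metalloprotease, had 96.4, 119 and 95.8 normalized counts with control and 1683, 1706 and 1686 with dexamethasone. F2rl3, a thrombin receptor, had means of 7.75 and 191 normalized counts. Vmn1r43, a vomeronasal receptor, had 0 reads in each control library and 296, 353 and 310.5 normalized counts with dexamethasone, at least 109-fold higher when the limit of 3 reads per library that a count of 0 allows is set for the control libraries.

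Genes named for immune and blood cells made up 13 of the 91. Ifi207, an interferon-inducible HIN-200 protein, had 139, 157 and 163 normalized counts with control and 5599, 5187 and 5353 with dexamethasone, a ratio of 34.9. Cd300lb, an activating receptor of myeloid cells, had 173, 198 and 183 normalized counts with control and 5410.5, 5097 and 5171 with dexamethasone. Havcr2, the checkpoint receptor TIM-3, had 301, 312 and 220 normalized counts with control and 5088, 5068 and 5159 with dexamethasone. No control library came near the dexamethasone libraries in these 3 genes, again a result of the choice of genes. Klra4, a Ly49 receptor of natural killer cells, had means of 40.4 and 2217 normalized counts, and Cd244a, the receptor 2B4, of 91.8 and 1820. Tarm1, a receptor of myeloid cells, had 13.8, 6.85 and 4.39 normalized counts with control and 1549, 1623 and 1652 with dexamethasone, a ratio of 172. H2-M9, a nonclassical MHC class I gene, had 0 reads in each control library and 310.0, 288 and 279 normalized counts with dexamethasone, at least 99.6-fold higher against the same limit of 3 reads. Ifi209, beside Ifi207, had 76.9% of its windows in no other gene. It had 2, 0 and 0 control reads and 217, 247 and 204 reads with dexamethasone. Its ratio without the added 1 was 384 (95% exact binomial interval 106 to 3178, counting error only). Since the gene was chosen by its ratio, the interval is no test. Fyb (660 normalized counts with dexamethasone), C5ar1 (417), Cd53 (283), Naip1 (174) and Fcrlb (173) completed the class.

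The markers of blood cells did not all move with this class. The summed level of 12 pan-hematopoietic markers was 6772 to 7041 normalized counts in the control libraries and 8181 to 8659 in the dexamethasone libraries, most of it Arhgdib. Ptprc (CD45), which nearly all white blood cells carry, had 1.76 to 2.94 normalized counts with control and 2.86 to 5.81 with dexamethasone. Spi1, Was and Vav1 had at most 5.87 normalized counts in any library. Of the 6 tested markers that were not selected, Itgb2 rose from 54.6 ± 10.2 to 504 ± 26.2 normalized counts (SD, n = 3 in each group), or 3.20 on the log2 scale (adjusted p = 4.91e-17 with limma). Laptm5 and Coro1a fell at low levels, from means of 19.2 and 20.4 normalized counts with control to 6.41 and 6.79 with dexamethasone. Cd53, itself on that list, was a selected gene. The summed level of 9 macrophage markers was 1489 to 1513 normalized counts with control and 1506 to 1693 with dexamethasone. Cd68 (means of 173 and 596) and Cd14 (257 and 597) were called higher and Lyz2 (996 and 351) lower. Mrc1 (3.15 and 17.3) and Cd163 (6.18 and 17.1) were also called higher, but from few reads. The 4 markers of T and natural killer cells in the table summed to at most 11.7 normalized counts in any library. Of 6 other tested HIN-200 genes, a list made after the genes were known, Ifi204 rose by 2.59 on the log2 scale and the other 5 were not called.

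Enzymes made up 11 genes, with Dhrs9, a dehydrogenase of retinoids and steroids, as the highest. It had 361, 411 and 389 normalized counts with control and 6980, 7152 and 6598 with dexamethasone, a ratio of 17.8. Ndst3, which modifies heparan sulfate, had 38.6, 46.0 and 43.1 normalized counts with control and 1902, 1976 and 1902 with dexamethasone, a ratio of 44.3. Acsbg1, an acyl-CoA synthetase of long-chain fatty acids, had 3.67, 2.94 and 2.64 normalized counts with control and 940.5, 958 and 998 with dexamethasone, a ratio of 237. Acsbg1 was thus close to the detection limit without dexamethasone and Dhrs9 was not. Sult1a1 (a phenol sulfotransferase) and Cyp1a1 (the target gene of the aryl hydrocarbon receptor) each had control means of 29.0 normalized counts and dexamethasone means of 753 and 613. Enpp1, which makes the mineralization inhibitor pyrophosphate, had 3.67, 1.96 and 1.76 normalized counts with control and 279.5, 279.0 and 260.5 with dexamethasone. B4galnt3, a glycosyltransferase, had 0, 1.96 and 3.52 normalized counts with control and 456, 438 and 391 with dexamethasone, a ratio of 152. Cbs, Hao1, Cyp4f40 and Lvrn had dexamethasone means between 192 and 334 normalized counts. The log2 ratio of Lvrn was 6.21, or 7.06 without control replicate 2.

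Channels and transporters were 4 genes and cytoskeletal proteins 3. Nipal1, a magnesium transporter, had 15.6, 15.7 and 16.7 normalized counts with control and 1128, 1120.5 and 1199 with dexamethasone, a ratio of 67.7. Kcnj12, an inward rectifier potassium channel, had 3, 1 and 0 reads with control and 158, 134 and 127 reads with dexamethasone. Its ratio without the added 1 was 120 (95% exact binomial interval 46.7 to 444). The interval covers counting error only and is no test, since the gene was chosen by its ratio. Clca3a1 and Cacng8 had dexamethasone means of 370.2 and 115 normalized counts. Tes, a focal adhesion protein, had 550, 507 and 497 normalized counts with control and 8507, 8261 and 8535 with dexamethasone. Shroom3, which drives apical constriction, had means of 90.6 and 1587 normalized counts, and Tnnt2, cardiac troponin T, of 7.23 and 303. Tmem200a (282 normalized counts with dexamethasone), Speer3 (222) and Vat1l (148) were placed in no class. Vat1l had 12.3 normalized counts in control replicate 3 and at most 1.96 in the others, and its log2 ratio was 4.55, or 5.68 without that library. The log2 ratio of Kcnj12 was 6.05, or 6.65 without control replicate 1, and that of Tmem200a was 4.51, or 5.14 without the same library.

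The remaining 19 genes were non-coding RNAs, pseudogenes or predicted genes, with dexamethasone means between 103 and 1153 normalized counts. Many lay at the locus of a coding gene, most often one of the same selection. The antisense RNA 1700006J14Rik and 9230105E05Rik lie within Hmga2 on the opposite strand, Gm49774 lies opposite Hmga1, and AC154912.5 lies in an intron of Fkbp5. Gm44274 and Gm44275 stand beside Pbp2, Gm44165 overlaps Tarm1, Gm6650 stands beside Speer3, Gm15473 is beside Tes, 4930471E19Rik is near Hmga2, Ifi203-ps is in the Ifi207 region and Gm42793 overlaps Spp1, which is one of the genes left out. Of the exon bases of 9330154J02Rik, 22.1% lie opposite Tpbg, a neighbour called higher. Reads from such genes and their host cannot be told apart where the strand setting is unknown or the exons share a strand. AC154912.5 and Gm44165 lie within Fkbp5 and Tarm1 on the same strand and share no exon bases with them. Whether unspliced host RNA was counted for these 2 genes was not tested. The highest was Gm44275, with 39.5, 28.4 and 55.4 normalized counts with control and 1098, 1153 and 1208 with dexamethasone. Gm44165 had 0 reads in each control library and 257, 263 and 286 normalized counts with dexamethasone, at least 91.4-fold higher against 3 reads. Gm42793, 1700006J14Rik, Gm35940 and Gm49774 had dexamethasone means of 858, 828, 775 and 486 normalized counts. A230028O05Rik, Gm19589, Gm39473 and Gm29686 stood at 444, 310.5, 301 and 130.3. When genes that overlapped any other gene called higher were removed, a step chosen after seeing the data, 72 of the 91 remained.

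Genes next to the selected ones were compared next, since the choice did not use their values. The nearest tested gene on each side gave 158 neighbours, of which 47 (29.7%) were called higher and 13 (8.23%) lower, beside 11.7% and 10.6% of all tested genes. Among the 138 neighbours that overlapped no selected gene, 35 (25.4%) were called higher, and among the 20 that overlapped one, 12 were. Several neighbours called higher had few or no control reads and passed the filter through their dexamethasone values. Vmn1r44 and Txk had control means of 0 and dexamethasone means of 67.1 and 47.2 normalized counts. Others, such as Vmn1r42 and Prl2c2, share windows with a selected gene. With a stricter filter on the mean the share was lower, though still above that of all genes then tested (given under processing). Genes of 1 locus share position and at times reads, so the neighbours are no independent sample and no test was made. The neighbours called higher with the highest mean counts included Map2k3, a MAP kinase kinase beside Kcnj12, and Dab2, an endocytic adaptor beside Fyb, with log2 changes of 1.75 and 2.08 (adjusted p with limma = 4.69e-22 and 9.28e-25). Ccn2, a matrix-associated growth factor beside Enpp1, rose from 2586 to 24825 normalized counts, or 3.26 on the log2 scale (SE 0.0395, adjusted p = 2.12e-27 with limma). Kitl, the ligand of Kit beside Dusp6, rose from 1949 to 14444 normalized counts, or 2.89 on the log2 scale (adjusted p = 2.12e-27 with limma). Cblb, a ubiquitin ligase, and Rhoj, a small GTPase, rose by log2 fold changes of 1.82 and 1.66.

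**Figure D4:**
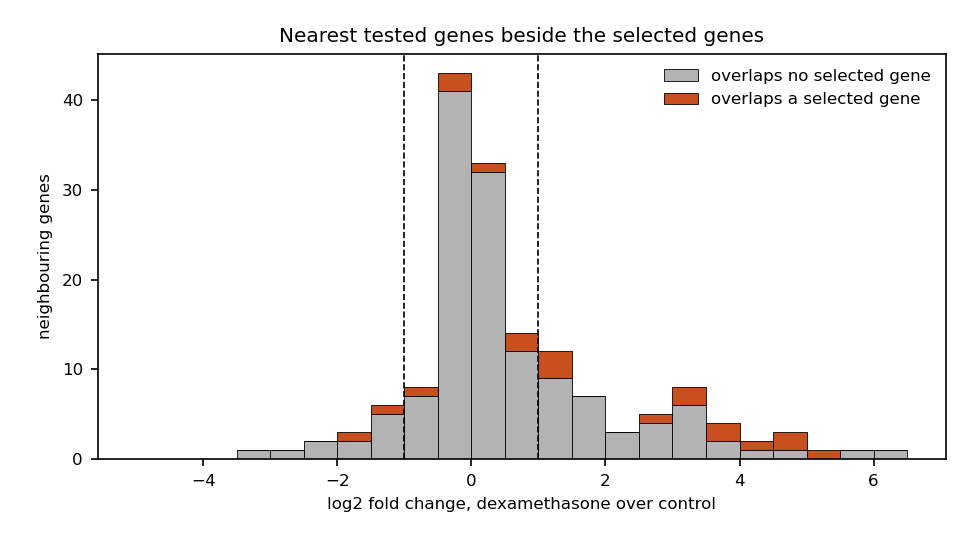
The bars count the 158 nearest tested genes on either side of the selected genes by log2 fold change (dexamethasone over control, bins of 0.5), in orange where a neighbour overlaps a selected gene. Dashed lines mark the cut-offs of -1 and 1, and the 47 genes called higher lie to the right.

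Other genes of the pathways the selected genes belong to were counted by their own tests. Over all tested genes 11.7% were called higher and 10.6% lower, the shares to set beside this and every other list count. Of 36 further glucocorticoid response genes tested, 14 rose, 1 fell and 21 did not pass, with a median log2 fold change of 0.65. Those with the highest mean were Anxa1, an anti-inflammatory annexin that rose by 1.24 on the log2 scale (adjusted p = 4.02e-19 with limma), Cdkn1a, which had a value of -0.73 under the cut-off, and the metallothionein Mt1, which rose from 10965 ± 708 to 50182 ± 2505.9 normalized counts (SD, n = 3 in each group). The selected genes of that list were Fkbp5 and Lcn2. Zbtb16, among the 14 that rose, had means of 0 and 42.8 normalized counts and passed the filter only through its dexamethasone values. All 20 proliferation genes rose, with a median log2 fold change of 2.45. Mki67, the marker of cycling cells, rose from 11639 ± 536 to 77747 ± 4229.9 normalized counts (SD, n = 3 in each group), or 2.74 on the log2 scale (adjusted p = 1.2e-25 with limma). Top2a and Mcm2, which act in chromosome separation and replication, rose by 2.72 and 2.43. This moved with Hmga1, Hmga2 and E2f8, and its part in their values was not tested.

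Of 19 other tested ERK target genes, 11 rose and 8 did not pass, with a median log2 fold change of 1.62. The list was made after the selected genes were known, and 11.7% of all tested genes were called higher. The dual-specificity phosphatase Dusp5 rose from 444 ± 19.1 to 6224 ± 310.2 normalized counts (SD, n = 3 in each group), or 3.80 on the log2 scale (adjusted p = 7.64e-27 with limma). The feedback inhibitor Spry2 and the immediate early gene Egr1 rose by 2.33 and 2.51 on the log2 scale (adjusted p with limma = 1.24e-21 and 2.82e-25). The selected genes of that list were Dusp6, Etv4, Etv5 and Fosl1. Among 11 other tested HMG and E2F genes, also listed later, 6 rose, with E2f7, the close relative of E2f8, at a log2 change of 3.49 (adjusted p = 1.02e-26 with limma).

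Bone genes were called in both directions. Of 12 further mineralization genes 4 rose and 4 fell, beside 11.7% and 10.6% of all tested genes. Mgp, an inhibitor of calcification, rose by 3.18 on the log2 scale (adjusted p = 1.21e-26 with limma), and Ank, a pyrophosphate transporter, and Slc20a1, a phosphate transporter, rose by 2.99 and 1.63. These genes and Enpp1 are known for limiting or supplying mineral, while Alpl, Bglap, Bglap2 and Ibsp fell by 2.45, 3.05, 3.33 and 1.26 on the log2 scale. Bglap and Bglap2 are near copies, so the split of their reads is uncertain. Of 11 osteocyte genes, Capg rose by 2.42 on the log2 scale (adjusted p = 2.92e-25 with limma), 4 genes fell, and Cd44 and Hyou1 had values of 0.47 and 0.14. Of 16 adipocyte and lipid genes Fasn alone rose, by 1.32 on the log2 scale (adjusted p = 2.93e-18 with limma), 2 fell, and Scd1 and Acaca had values of 0.66 and 0.83. With 13 of the 16 not called, these counts lie near the 11.7% higher and 10.6% lower of all tested genes. Cebpa, at 0.98, passed the cut-off without control replicate 2 or without dexamethasone replicate 2, and 2 genes then rose. Of 12 chemokines and cytokines other than Il34, 4 rose and 1 fell. Among those 4, Il33 had means of 3.38 and 32.8 normalized counts and passed the filter only through its dexamethasone values. Cx3cl1 rose by 2.38 on the log2 scale (adjusted p = 3.87e-25 with limma), and Csf1 and Cxcl12 had values of 0.38 and 0.54. The Serpina3 list had no further gene tested. Of 8 other tested receptors and ligands of the IL-1 and IL-18 family, also listed later, 6 rose, among them Il1rap, the shared accessory chain, at a log2 change of 2.82 (adjusted p = 4.2e-25 with limma).

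**Figure D5:**
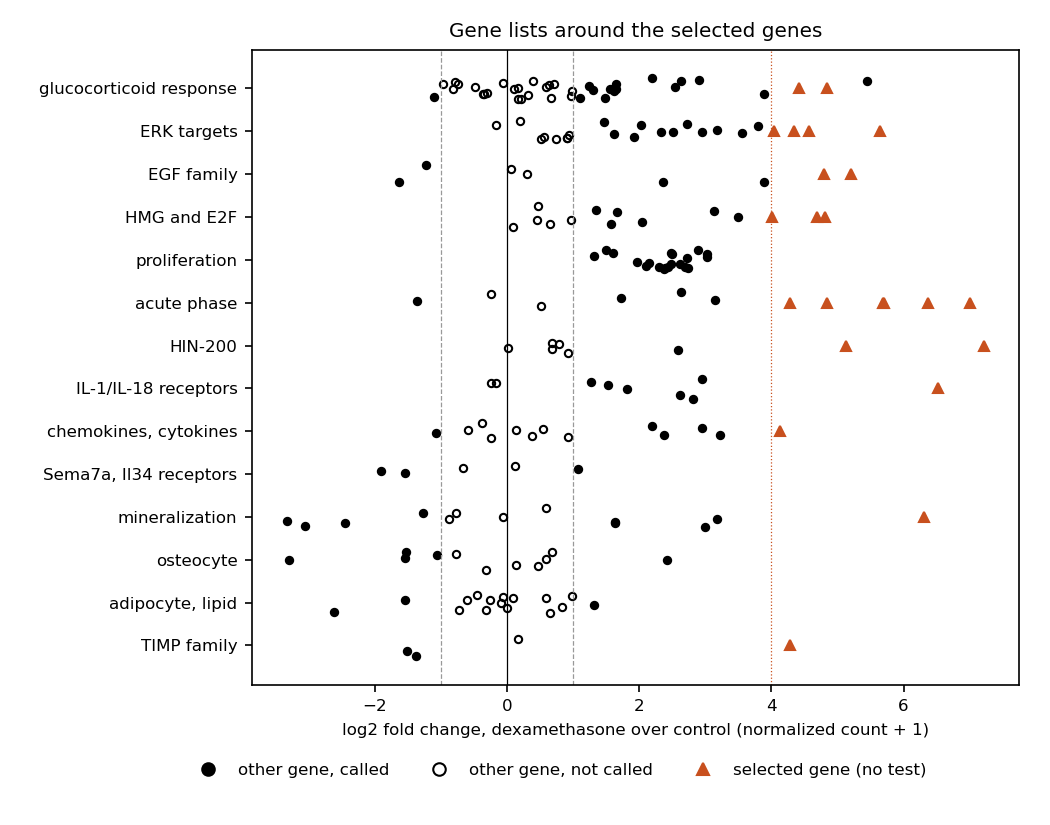
Each point is a gene of a list, placed by its log2 fold change on the normalized count + 1, with filled circles for other genes called higher or lower, open circles for those not called and orange triangles for selected genes, which carry no test. Dashed lines mark the cut-offs of -1 and 1 and the dotted line the selection limit of 4, and all 20 proliferation genes lie above 1.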

How the data were processed

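Stranded mRNA libraries of bone cells, 3 from control and 3 from dexamethasone-treated mice, were sequenced. The submitters' processing notes name bcl2fastq, STAR (2.7.10a), GRCm39 and DESeq2 (1.36.0). The deposited signal is a normalized count per gene, which the authors obtained by dividing reads by a size factor per library. The annotation release and strand setting are not given in the sources used here. Every value was a whole multiple of 1 read (100% within 0.001), so reads were recovered.

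Symbols, exon lengths, gene order and overlaps were taken from GENCODE M21 (GRCm38), and promoters from RefSeq, so no gene coordinates of the files' build were used. Genes with a mean of at least 10 were tested on log2(normalized count + 1) with limma 3.58.1 in R 4.3.3 (trend, Benjamini-Hochberg over 17442 genes, no covariates), called at an adjusted p under 0.05 and at least 1 in size on the log2 scale. The added 1 understates the change of genes with few reads. The fit was tested on simulated data. edgeR 4.0.16 and DESeq2 1.42.0 on recovered reads, other scalings, filters and pseudocounts, and leaving out each library were alternatives. A count of 0 allows up to 3 reads, for counting error only. Libraries within groups differed by more than sampling noise (chi-square per degree of freedom 3.52 to 29.6). Dexamethasone replicate 3 stood farthest apart, at 29.6 from replicate 1 and 20.5 from replicate 2, which were at 7.42 from each other.

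The selected genes and all lists were chosen with earlier results of these data known, and classes were assigned by hand. The ERK, EGF, acute-phase, HIN-200, IL-1 and IL-18, ligand receptor, HMG and E2F, and TIMP lists were added after the selected genes were seen. Genes named are the 20 selected genes with the highest dexamethasone mean, the 8 with the highest ratio, up to 5 per class, those beside each limit, up to 3 others per planned list and 6 neighbours by mean; further genes were named after their values were seen.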

Additional observations from a re-analysis of the deposited data

How the results depend on the processing

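The choice of genes was most open to its own limits. With a ratio of at least 8 the number of selected genes was 187, with at least 32 it was 39, and with no minimum level but a mean of at least 10 it was 137. Under other pseudocounts, scalings, count models and limits of 50 or 200 it was between 75 and 109. It was 73 when the lowest dexamethasone library was set against the highest control library, and 91 to 93 when each library was left out. With all libraries scaled to the same total the median log2 fold change of all tested genes was -0.11, from 0.00, and 82 genes remained selected, all of them among the 91. The log2 ratios of the 91 genes then moved by -0.12 to -0.05 and 8 fell under 4. When a library was left out the log2 ratios moved by -0.44 to 1.14, and those of Gm19589 and Ifi209 reached 7.71 and 7.90, from 7.12 and 7.21, and that of Tnni3k 5.58, from 4.99, without control replicate 1 (Gm19589 and Ifi209) or 2 (Tnni3k). Over all tested genes 3894 were called (2037 higher, 1857 lower), and 2170 with a mean of at least 100 (1350 higher, 820 lower). With the same total 1775 were called higher and 2163 lower. The share of neighbours called higher was 19.9% with the filter at 100, beside 11.2% of all genes then tested, 28.5% with the same total, beside 10.2%, 23.9% for the 2 nearest genes on each side, and 25.3% for protein coding neighbours, a setting chosen after seeing the data. Without a filter on low values 2 genes of the adipocyte list, 1 of them Cfd, and 2 of the Serpina3 list rose. When each library was left out, the adipocyte list had 1 to 2 genes that rose.

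With the replicate number as a block (replicate block), 3897 genes were called and the share of neighbours stayed at 29.7%. Libraries with the same number did not deviate together (correlations -0.16, -0.23 and -0.05). With 3 libraries per group this cannot exclude a weak pairing by number, and no pairing was used in the main test. Depth limits the 10 selected genes with at most 3 reads in every control library, whose ratios are bounds or wide intervals.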
